A study of Mus musculus with 6 samples.

Results

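The 49 genes described here act in DNA replication, and they were measured in tissue beside the dorsal aorta of mouse embryos at embryonic day 10.5. They were listed by name for their role (origin licensing, the replicative helicase, polymerases, the sliding clamp and its loader, nucleotide supply and chromatin at the fork). All 49 had a probe set among the 24675 genes of the Affymetrix mouse Gene 2.0 ST arrays. Embryos of strain C57Bl/6 were frozen unfixed and cryosectioned, and the tissue was cut out by laser microdissection. The dorsal group (3 arrays) holds tissue above the aorta, up to the notochord, and the ventral group (3 arrays) tissue below the vessel. No allele, transgene or agent is named for either group. Both regions were cut from the same embryos, per the labels' protocols, which give neither the number of embryos behind a sample nor a marker used to choose the cells. Each sample entered amplification with between 200 and 1000 pg of RNA. The comparison asks which transcripts differ between the 2 sides of the aorta, where the series places a niche of the first blood stem cells under the vessel.

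Cells copy their DNA once per division. In G1 phase the origin recognition complex, Cdc6 and Cdt1 load rings of MCM proteins onto DNA, which licenses an origin, and geminin blocks a second loading later in the cycle. In S phase Cdc45 and the GINS complex turn each ring into a running helicase, and polymerases, the clamp Pcna and its loader copy the strands behind it. Many of these genes are activated together by E2F transcription factors at the entry into S phase, so their transcripts are widely used as a sign of proliferation. In a piece of tissue, the number of cycling cells and the RNA per cell cannot be told apart.

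Each gene has 1 RMA signal per array, in log2 units, and differences are ventral minus dorsal. Medians of the arrays lay between 3.20 and 3.27, and 4.49% of genes had a mean above 5. Of the 49 members 5 had a mean above 5 (Pcna, Tyms, Rpa3, Orc6 and Rfc5), and 12 lay below the median gene, at 3.24. Olfactory and vomeronasal receptor genes served as a scale for dim signals, a choice made after the data were seen. The 95th percentile of the means of 1360 such genes was 4.66, and 6 members exceeded it, the 5 above and Dut. No detection calls were used here, so most members were not shown to be above background. Of the markers of the tissue, 2 of 7 for notochord (Krt8 and Krt18) and 2 of 10 for sclerotome (Foxc1 and Twist1) exceeded 4.66. The other listed markers of these tissues, among them Noto, Shh, Pax1 and Pax9, did not. For erythroid cells 4 of 14 and for endothelium 0 of 12 exceeded it.

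No replication gene passed the test across all genes. Higher ventral values were more frequent among them than among all genes, but they were also frequent among the olfactory and vomeronasal receptor genes with means over 3. In limma with the replicate number as a block, 0 of 49 members and 0% of all genes had an adjusted p under 0.05, and the lowest adjusted p of a member was 0.373, for Mcm3. At an unadjusted p under 0.05 there were 10 members higher in ventral tissue, 20.4% of the list, where 4.32% of all genes were. In the dorsal direction there was 1 member, Rfc2, or 2.04%, where 5.9% of all genes were. The values of all 3 ventral arrays lay above all 3 dorsal values in 13 members, 26.5%, against a background of 6.74%. They lay below in 2 members, Pola2 and Pole2, 4.08%, against 12%. In total 30 of the 49 differences were positive, 61.2%, against 42% of all genes. Receptor genes with means over 3 also had more ventral differences than all genes, but the members were not cut by level, so these sets are not alike. Of the 37 members at or above the median gene, at 3.24, 24.3% had an unadjusted limma p under 0.05 in the ventral direction. In that direction 32.4% of the 37 did not overlap, and 67.6% were positive. Of the 478 olfactory and vomeronasal receptors whose mean exceeded 3, 91 (19.0%) had an unadjusted limma p under 0.05 in the ventral direction, 100 (20.9%) did not overlap in that direction, and 321 (67.2%) were positive. Averaged over these 478 receptors, the dorsal arrays gave 3.74 to 3.79 and the ventral arrays 3.92 to 4.07, and their median difference was 0.21. Without the cut at 3, 109 of the 1360 receptors (8.01%) had an unadjusted limma p under 0.05 in the ventral and 109 in the dorsal direction. Of these 1360, 136 (10%) did not overlap in the ventral and 207 in the dorsal direction. Positive differences were found in 586 (43.1%), and the median was -0.07. What the receptors and the replication genes share was not tested.

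The size of the shift was small for most members. The median difference was 0.08 over the 49 members and -0.06 over all genes. Of the 49 members, 4 differed by more than 1 on the log2 scale (Pcna, Orc6, Mcm4 and Mcm3), where 1.32% of all genes did. Below -1 lay 0 of 49, where 0.851% of all genes did. The ventral value exceeded the dorsal value of equal number in 3 of 3 pairs for 18 of 49 members (13.3% of all genes). The reverse held for 5 of 49 (21.8% of all genes). Averaged over the members other than Pcna, dorsal arrays 1, 2 and 3 gave 3.63, 3.69 and 3.68, and ventral arrays gave 3.89, 3.83 and 3.80. These means did not overlap between the sides. Averaged over all genes, the dorsal arrays gave 3.37, 3.39 and 3.39 and the ventral arrays 3.34, 3.32 and 3.36. Those means did not overlap either, in the opposite direction. Among the 37 members at or above the median gene, 25 were positive with a median difference of 0.24, while the median over all genes at that level was -0.01. Of these 37, 9 had an unadjusted p under 0.05 in the ventral direction (6.67% of genes at that level) and 0 in the dorsal direction (5%), and 12 and 0 did not overlap (8.96% and 8.76%). Among the 12 dimmer members, 5 were positive and the median was -0.11.

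**Figure D1:**
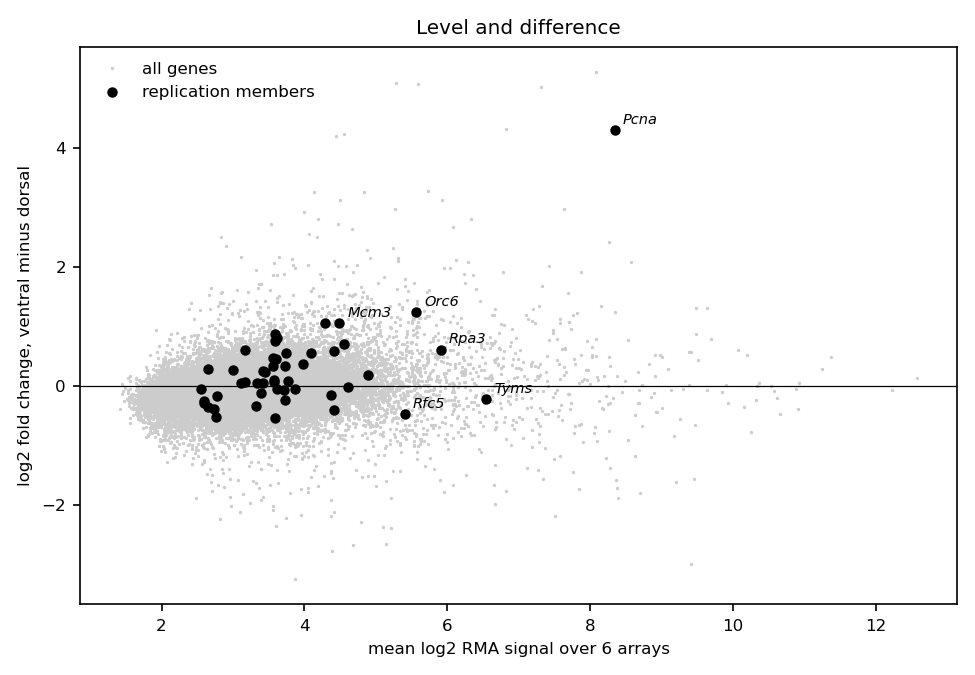
Mean log2 signal over the 6 arrays (horizontal axis) against the log2 fold change, ventral minus dorsal (vertical axis). Grey points are all 24675 genes and black points the 49 members. The cloud of dim members straddles 0, and Pcna stands apart at a mean of 8.34 and a difference of 4.30.

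Centring each array on its median moved the shares of all genes to 5.28% and 4.59% and the member counts to 11 and 0, and cyclic loess moved the shares to 4.81% and 4.37% and the counts to 9 and 1. The count of 10 depended on which arrays entered. It was 6 without both arrays numbered 2, and without the block it was 9 with all arrays, 4 without dorsal array 1, 5 without dorsal array 2 and 6 without ventral array 1. The background in the ventral direction stayed between 3.56% and 4.64% in these fits.

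For genes with a RefSeq promoter sequence (assembly GRCm38.p6), the 300 bases from 250 before to 50 after the start were searched for the letters of E2F sites on both strands. These letters were TTTCCCGC, TTTGGCGC, TTTCGCGC and TTTGCCGC, and overlapping matches were each counted. A total of 41 members had 50 such windows, and 16 of the windows, 32%, held a match, against 2.26% of all 32851 windows of the table and 2.85% of those of protein-coding genes. The CCAAT box, searched as CCAAT, was in 56% of the member windows and 37.4% of all windows. The CHR element of mitotic genes, searched as TTTGAA and TTCGAA, was in 14% and 19.2%. Median GC content was 61.3% in the member windows and 56.3% in those of protein-coding genes. Of the 10 members with the smallest p in the ventral direction, 8 had a window each. An E2F match was in 1 of these 8 (Mcm3) and in 15 of the 42 windows of the other members, and a CCAAT box was in all 8 and in 20 of the 42. The members Gins1, Gins2, Gins4, Gmnn, Mcm4, Pole, Prim2 and Rfc2 had no window. A match is a description of the letters and not a measured site. Windows are shown for 6 members, up to 30 bases past the start, 5′ to 3′ on the gene's strand. Capitals mark matches to the E2F letters and to CCAAT or its reverse complement.

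Origin licensing genes were mixed, with 6 of 9 positive and a median difference of 0.09. Orc6, the smallest subunit of the origin recognition complex, read 4.38, 5.72 and 4.72 on dorsal arrays 1, 2 and 3 and 6.57, 6.20 and 5.78 on ventral arrays 1, 2 and 3, the order used throughout. All ventral values lay above the dorsal ones, although 5.72 in dorsal array 2 was close to 5.78 in ventral array 3. The difference was 1.24 ± 0.34 (SE), a 2.37-fold higher ventral level, with a limma adjusted p of 0.437. Orc1, the ATPase that starts assembly of the complex, also did not overlap, with a dorsal mean of 3.56 ± 0.14 and a ventral mean of 3.89 ± 0.18 (SD, n = 3 arrays for each mean, here and below). Orc3 was at 4.59 and 4.29 in ventral arrays 1 and 2 and at 3.03 in ventral array 3, below the dorsal mean of 3.21. Orc4, another core subunit, had the same shape, with ventral values of 4.02, 4.28 and 3.07 against a dorsal mean of 3.33. Both genes overlapped between the sides, and the 95% intervals of both differences included 0. Orc2 had a difference of 0.06 and Orc5 of -0.38. The loading factors Cdc6 and Cdt1 had 0.09 and -0.06, with 95% intervals from -0.34 to 0.52 and from -0.50 to 0.38. Gmnn, which encodes the licensing inhibitor geminin, had -0.23, with dorsal array 1 at 4.76 and the other 5 arrays between 3.33 and 3.74. The Orc6 window, with a single CCAAT box on the reverse strand starting at base -54 and no E2F match, lies at chr8:85299382-85299661 on the plus strand (GRCm38.p6).
Orc6: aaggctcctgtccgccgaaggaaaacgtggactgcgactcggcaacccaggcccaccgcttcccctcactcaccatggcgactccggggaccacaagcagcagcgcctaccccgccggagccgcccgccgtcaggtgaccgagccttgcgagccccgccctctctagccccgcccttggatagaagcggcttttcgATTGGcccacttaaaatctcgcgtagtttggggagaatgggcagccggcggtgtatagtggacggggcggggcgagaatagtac

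Of the MCM genes 5 of 6 had positive differences, with a median of 0.63, and 4 of 6 did not overlap in the ventral direction. Of all genes at or above the median level, where all 6 lay, 8.96% did not overlap in that direction and 49.1% were positive. Over all genes 42% were positive. The MCM genes encode the 6 subunits of the ring that becomes the replicative helicase. Mcm3 read 4.10, 3.60 and 4.19 on the dorsal and 4.98, 4.98 and 5.09 on the ventral arrays. The ventral values were close together and well clear of the dorsal ones. Its difference was 1.05 ± 0.19 (SE), or 2.07-fold, with a 95% interval from 0.58 to 1.52. The unadjusted limma p was 0.0017 with the block and 0.00075 without it, and the adjusted p was 0.373 and 0.228. Mcm4 was at 3.98, 3.38 and 3.92 on the dorsal and at 5.95, 4.03 and 4.48 on the ventral arrays. Most of its difference of 1.06 ± 0.32 came from ventral array 1, and without that array it was 0.49 in a fit without the block. Mcm2 was at 3.39, 3.26 and 3.75 on the dorsal and at 4.13, 3.83 and 4.11 on the ventral arrays, a difference of 0.56 ± 0.18 without overlap. Mcm6 had 0.71, with ventral array 3 at 5.65 and an overlap of 4.43 in ventral array 2 with 4.53 in dorsal array 1. Mcm7 had 0.25, also without overlap. Mcm5 was the exception, at 3.90 ± 0.21 on the dorsal and 3.84 ± 0.02 on the ventral side, a difference of -0.06 with a 95% interval from -0.49 to 0.38. Adjusted p-values of the other 5 MCM genes lay between 0.442 and 0.920 in limma.

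Windows of 4 helicase genes are shown, with differences of 0.56 (Mcm2), 1.05 (Mcm3), -0.06 (Mcm5) and 0.71 (Mcm6, with overlap). Mcm7, which is not shown, held 2 E2F matches in a window and 0 in another. Whether matches and differences go together was not tested. Mcm5, with its difference near 0, held 2 overlapping E2F matches starting at bases -153 and -149 and 3 CCAAT boxes. Mcm6 held 3 E2F matches, starting at -110, -106 and -47. Mcm3 held 1 E2F match at base 20 within the stretch shown and another at 39 beyond it, with 3 CCAAT boxes at -117, -72 and -32. Mcm2 held no E2F match and 1 CCAAT box at -175. Positions count from the start and give the leftmost base as printed. The stretches lie at chr6:88898751-88899030 (Mcm2, minus strand), chr1:20820283-20820562 (Mcm3, minus), chr8:75109259-75109538 (Mcm5, plus) and chr1:128359676-128359955 (Mcm6, minus), all in GRCm38.p6.
Mcm2: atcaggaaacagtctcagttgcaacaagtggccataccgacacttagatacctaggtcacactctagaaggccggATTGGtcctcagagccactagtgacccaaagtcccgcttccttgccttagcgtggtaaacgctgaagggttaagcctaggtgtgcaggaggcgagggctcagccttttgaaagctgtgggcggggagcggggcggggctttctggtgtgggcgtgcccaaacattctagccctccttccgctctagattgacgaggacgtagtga
Mcm3: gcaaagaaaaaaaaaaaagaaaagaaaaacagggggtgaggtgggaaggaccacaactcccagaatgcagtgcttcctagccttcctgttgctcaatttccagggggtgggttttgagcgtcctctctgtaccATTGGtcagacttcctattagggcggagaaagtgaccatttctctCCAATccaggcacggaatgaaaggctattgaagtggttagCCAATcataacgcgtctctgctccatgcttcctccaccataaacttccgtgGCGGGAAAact
Mcm5: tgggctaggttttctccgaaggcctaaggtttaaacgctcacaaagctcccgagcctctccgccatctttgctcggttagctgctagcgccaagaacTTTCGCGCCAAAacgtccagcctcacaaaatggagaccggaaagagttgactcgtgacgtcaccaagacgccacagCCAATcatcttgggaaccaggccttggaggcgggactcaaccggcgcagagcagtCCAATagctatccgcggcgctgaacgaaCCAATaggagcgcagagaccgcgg
Mcm6: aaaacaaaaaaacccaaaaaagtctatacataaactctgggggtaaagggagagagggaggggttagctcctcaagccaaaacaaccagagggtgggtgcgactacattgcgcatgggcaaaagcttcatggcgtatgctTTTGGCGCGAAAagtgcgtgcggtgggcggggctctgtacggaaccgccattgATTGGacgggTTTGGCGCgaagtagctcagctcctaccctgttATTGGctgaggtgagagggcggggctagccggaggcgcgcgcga

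Of 6 genes that activate the loaded helicase 3 were positive, the median difference was 0.01, and all 6 overlapped between the sides. Whether they differ from the MCM genes was not tested. Gins4, a subunit of the GINS complex, had means of 4.11 ± 0.15 (dorsal) and 4.71 ± 0.55 (ventral), a difference of 0.60 in the ventral direction in all 3 pairs of equal number. Gins2, of the same complex, had the opposite sign, at 3.85 ± 0.23 and 3.32 ± 0.41. The other subunits Gins1 and Gins3 had -0.05 and 0.24. Cdc45, which joins GINS on the helicase, had -0.34, and Mcm10, which is needed for the helicase to start moving, 0.07. Every 95% interval in this group included 0, and limma adjusted p-values lay between 0.495 and 0.935.

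Pcna showed the largest difference of the list and also the largest spread. Its product is the ring that holds DNA polymerases on the template. It read 9.19, 1.43 and 7.95 on the dorsal and 10.61, 10.25 and 10.62 on the ventral arrays. The ventral values were nearly equal and all above the dorsal ones, and dorsal array 2 stood far below the rest. In that array only 19 of 24675 genes had a lower value than Pcna, while on the other 5 arrays between 99.465% and 99.951% of genes did. Besides Pcna, 1 other gene of dorsal array 2 (the predicted gene Gm3511) lay 4 or more log2 units below all other arrays. The difference over all arrays was 4.30 ± 1.36 (SE), with a 95% interval from 0.94 to 7.67 and a limma adjusted p of 0.460. Without both arrays numbered 2 it was 2.04, and without dorsal array 2 alone, in a fit without the block, it was 1.92. The adjusted p-values there were 0.505 and 0.251. Every ventral value exceeded every dorsal value, and dorsal array 2 set the size of the difference. The Pcna window held 1 CCAAT box on the reverse strand at base -87 and no E2F match, and the stretch shown lies at chr2:132253151-132253430 on the minus strand (GRCm38.p6).
Pcna: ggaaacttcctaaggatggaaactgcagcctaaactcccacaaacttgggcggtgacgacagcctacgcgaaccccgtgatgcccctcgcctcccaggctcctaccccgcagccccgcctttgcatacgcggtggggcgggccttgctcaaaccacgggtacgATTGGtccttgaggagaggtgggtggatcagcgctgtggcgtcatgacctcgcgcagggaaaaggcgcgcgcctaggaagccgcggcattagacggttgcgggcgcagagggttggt

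The clamp loader genes pointed in both directions. Replication factor C is a complex of 5 subunits that opens the Pcna ring and closes it around DNA. Rfc1, the large subunit, was at 3.18, 3.34 and 2.95 on the dorsal and at 3.75, 4.77 and 3.55 on the ventral arrays. The groups did not overlap, and ventral array 2 was the highest. Its difference was 0.87 ± 0.23 (SE), with a limma adjusted p of 0.437. Rfc2 had the only unadjusted p under 0.05 in the dorsal direction, with dorsal values of 2.85, 3.65 and 2.60 and ventral values of 2.55, 2.69 and 2.28. The groups overlapped, all values but 1 lay below the median gene, and without the block the unadjusted limma p went from 0.0476 to 0.103. Rfc5 had means of 5.64 ± 0.35 (dorsal) and 5.16 ± 0.60 (ventral), a difference of -0.48 with a 95% interval from -1.28 to 0.32. Rfc3 and Rfc4 had 0.28 and -0.12. With Pcna the group had 3 of 6 members positive.

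**Figure D2:**
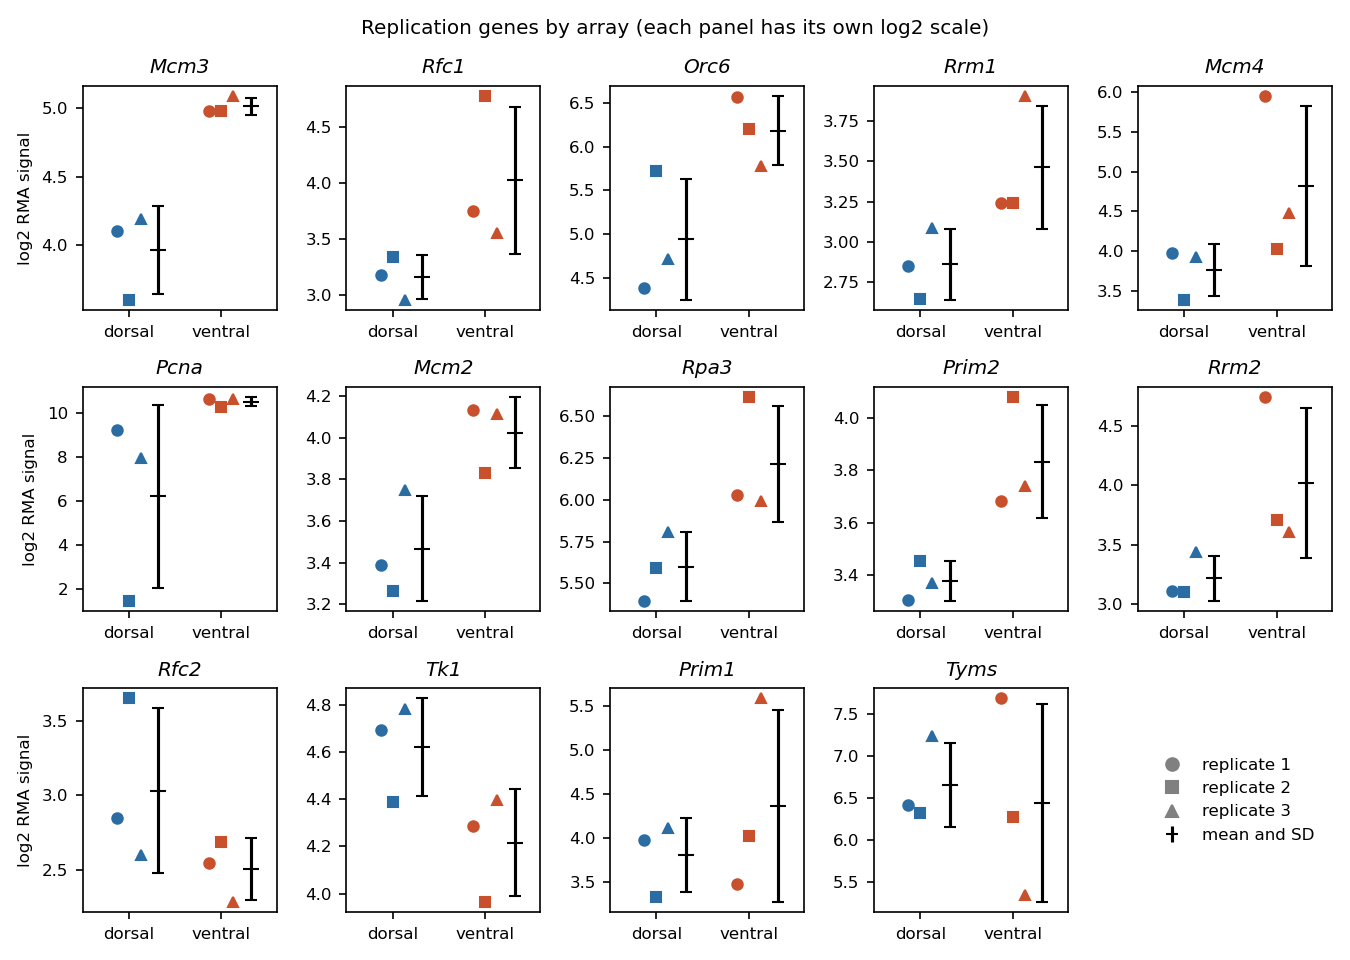
Log2 RMA signal (vertical axis, own range in each panel) of 14 replication genes in the 3 dorsal (blue) and 3 ventral (orange) arrays. Symbols give the replicate number, and the black marks give mean and SD. The ventral values lie above all dorsal values in the first 10 panels, and the low Pcna value of dorsal array 2, at 1.43, is visible.

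Replication protein A, which coats single-stranded DNA at the fork, was uneven across its 3 subunits. Rpa3, the smallest subunit, was at 5.40, 5.59 and 5.81 on the dorsal and at 6.03, 6.61 and 5.99 on the ventral arrays. Its difference of 0.61 ± 0.22 (SE) came without overlap, and its limma adjusted p was 0.466. Rpa1, the main DNA-binding subunit, had -0.25 at signals between 2.28 and 2.91. Rpa2 had -0.04, with dorsal array 2 at 4.70 against 3.28 and 2.94 in the other dorsal arrays, and a 95% interval from -1.30 to 1.22.

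Polymerase and primase genes had a median difference of 0.06, with 6 of 9 positive. The primase genes, whose products lay down the RNA primer that starts each strand, had the larger values. Prim2, the large primase subunit, was at 3.31, 3.46 and 3.37 on the dorsal and at 3.68, 4.08 and 3.74 on the ventral arrays, without overlap. The difference was 0.46 ± 0.17 (SE), with a limma adjusted p of 0.478. Prim1, the catalytic subunit, had 0.56, but ventral array 3 at 5.59 stood apart from 3.49 and 4.02, and the dorsal values of 3.97, 3.33 and 4.12 overlapped with these. Within polymerase alpha, which carries the primase, Pola1 had 0.37 and Pola2 had -0.36. Pola2 was lower in all ventral arrays, between 2.42 and 2.49 against 2.67 to 3.08. Pole2, an accessory subunit of the leading-strand polymerase epsilon, was also lower in all ventral arrays, with means of 2.74 ± 0.11 (dorsal) and 2.45 ± 0.09 (ventral). Both genes lay below the median gene in every array. The catalytic subunits Pold1, of the lagging-strand polymerase delta, and Pole had 0.08 and 0.06, and Pold2 and Pold3 had -0.15 and 0.05. The genes for joining Okazaki fragments gave -0.18 for the flap nuclease Fen1 and -0.02 for the ligase Lig1, with 95% intervals from -0.72 to 0.36 and from -0.48 to 0.44.

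Nucleotide supply genes had 3 of 5 positive and a median difference of 0.19. Both subunits of ribonucleotide reductase, which makes deoxynucleotides from ribonucleotides, were higher in all ventral arrays. Rrm1, the large subunit, was at 2.85, 2.64 and 3.09 on the dorsal and at 3.24, 3.24 and 3.90 on the ventral arrays, a difference of 0.60 ± 0.18 (SE). Its mean over the 6 arrays, 3.16, lay below the median gene, at 3.24. Rrm2, the subunit made in S phase, was at 3.11, 3.10 and 3.44 on the dorsal and at 4.74, 3.71 and 3.61 on the ventral arrays, a difference of 0.80 ± 0.30. Their limma adjusted p-values were 0.442 and 0.480. The thymidylate enzymes Tk1 and Tyms had negative differences, and whether they differ from the reductase genes was not tested. Tk1, the thymidine kinase of dividing cells, was at 4.69, 4.39 and 4.78 on the dorsal and at 4.29, 3.96 and 4.40 on the ventral arrays. It was lower ventrally in all 3 pairs although the highest ventral value, 4.40, just passed the lowest dorsal value, 4.39, and the difference was -0.41 with a 95% interval from -0.81 to 0.00. Tyms, which makes thymidylate, was at 6.41, 6.32 and 7.23 on the dorsal and at 7.69, 6.27 and 5.34 on the ventral arrays. The ventral arrays spanned the whole dorsal range, and the difference of -0.22 turned positive when dorsal array 3 or ventral array 3 was left out. Dut, which removes dUTP, had 0.19.

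Genes of chromatin at the fork had small positive differences in 3 of 3 members. Uhrf1, which recognises half-methylated DNA behind the fork, had means of 3.40 ± 0.21 (dorsal) and 3.73 ± 0.15 (ventral) and did not overlap. Chaf1a and Chaf1b, subunits of the factor that deposits histones on new DNA, had 0.29 and 0.06. The 95% interval of all 3 differences included 0.

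**Figure D3:**
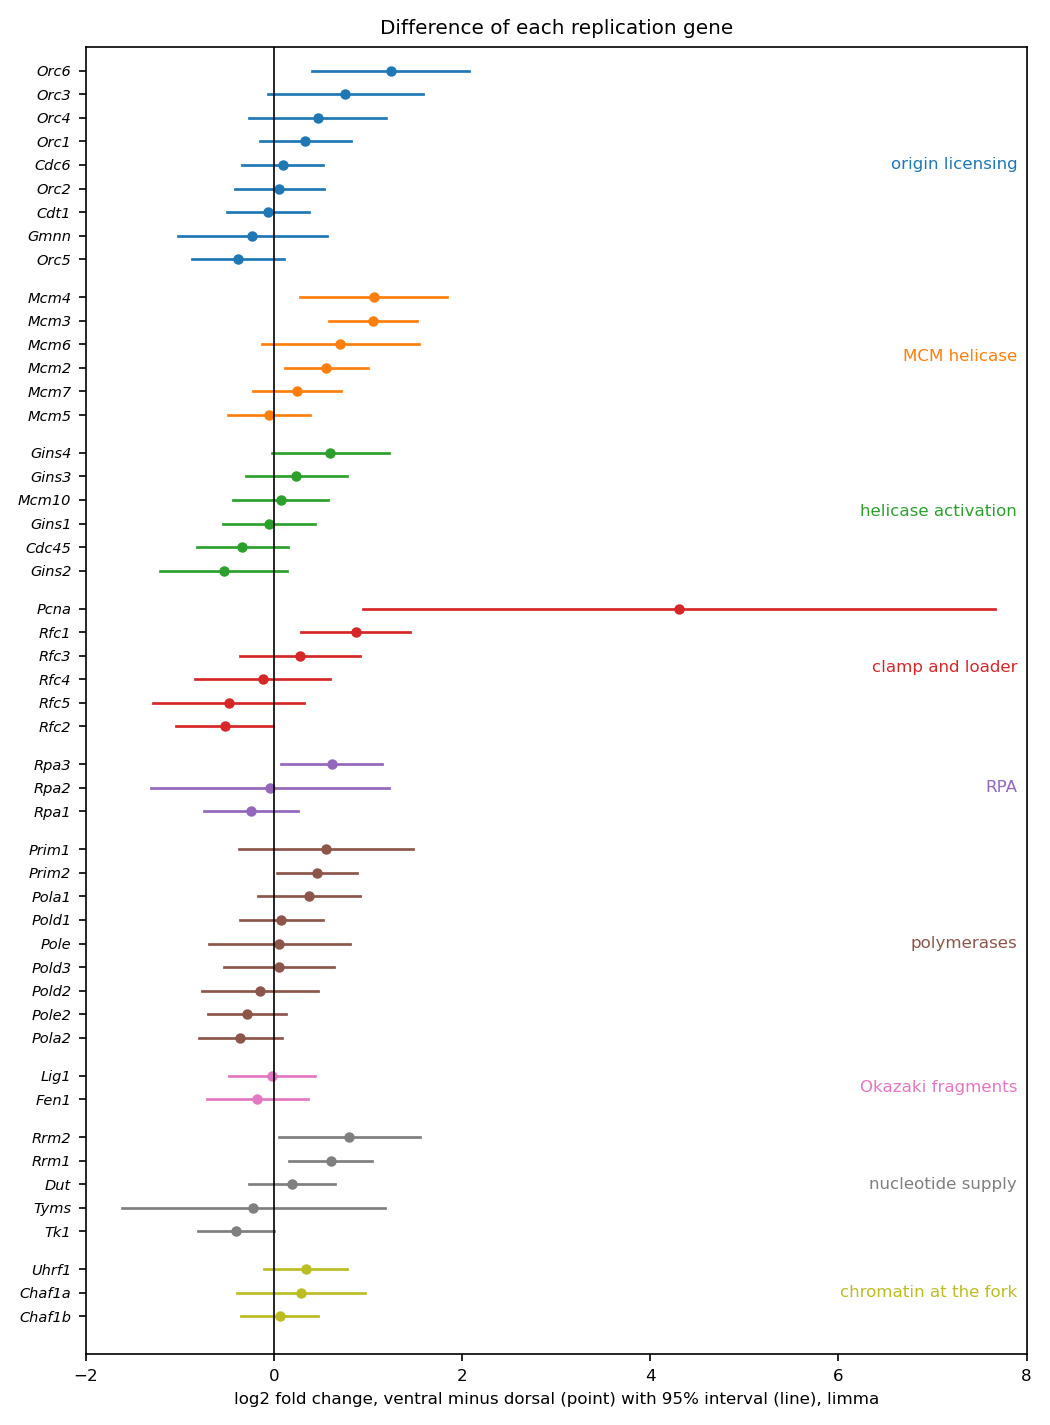
Log2 fold change, ventral minus dorsal, of each of the 49 members (points) with the 95% interval from limma (lines), grouped and coloured by role. The interval lies wholly above 0 for 10 members and wholly below 0 for Rfc2, before any adjustment for multiple testing.

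Other genes of replication and the cell cycle were taken from lists by role, with 111 of 115 genes measured, among them 32 of G1/S control and 23 of mitosis. None reached the adjusted threshold in limma. The unadjusted threshold was passed by 11 genes in the ventral and by 2 in the dorsal direction, where 4.32% and 5.9% of all genes passed it. Without the mitotic genes there were 9 and 2 of 88. Groups that did not overlap numbered 10 in each direction among the 111, or 9.01%. Of all genes 6.74% did not overlap in the ventral and 12% in the dorsal direction. Among 29 firing and fork factors, 19 were positive and the median was 0.07. Pole3, a histone-fold subunit of polymerase epsilon, had 1.21 ± 0.17 (SE), at 3.84, 5.32 and 4.22 on the dorsal and 5.19, 6.41 and 5.42 on the ventral arrays. The sides overlapped, each ventral array exceeded the dorsal array of its number, and the unadjusted limma p went from 0.00046 to 0.0274 without the block. Topbp1, an activator of origin firing, had 0.57 without overlap, and Pole4, the partner of Pole3, had -0.39. Recql4, a helicase at origins, had -0.31. Top2a, the topoisomerase that untangles replicated DNA, had 1.17, but dorsal array 2 was at 6.95 beside 4.03 and 3.98.

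Genes of fork chromatin outside the members had 10 of 13 positive and a median of 0.47. Asf1a, a chaperone that hands histones to the assembly factor, was at 4.58, 4.15 and 3.76 on the dorsal and at 5.36, 6.38 and 5.96 on the ventral arrays. Its groups were clearly separate, with a difference of 1.74 ± 0.33 (SE) and a limma adjusted p of 0.378. Hells, a chromatin remodeller, had 0.67 with overlap, and its unadjusted limma p went from 0.031 to 0.27 without the block. Dnmt1, which copies DNA methylation after replication, had 0.39, also with overlap. Other nucleotide supply genes had 7 of 14 positive and a median of 0.00. Ctps, the synthase of CTP, had 0.93 and Gart, of purine synthesis, 0.44, both without overlap. Tk2, the mitochondrial thymidine kinase, had -0.36 and Rrm2b, the reductase subunit used outside S phase, -0.35, both lower in all ventral arrays.

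Of the genes controlling the step from G1 into S phase 11 of 32 were positive, with a median of -0.11. E2f1, an activator of replication genes, had -0.27, with a 95% interval from -0.84 to 0.29. The cyclin genes Ccne1 and Ccne2, which drive entry into S phase, had 0.07 and -0.00. Tfdp1, the binding partner of E2F proteins, had 1.52, with 4.23, 4.46 and 3.04 on the dorsal and 6.81, 4.91 and 4.57 on the ventral arrays. Its sides did not overlap, and the limma adjusted p was 0.437. Ccna2, cyclin A of S and G2 phase, had 0.89, also without overlap. In the dorsal direction, Cdc25a had -0.48, Cdk4 had -0.56 and Cdkn1c, an inhibitor of cell division, had -0.44. Mitotic genes had 19 of 23 positive and a median of 0.29, with 0.84 for the kinetochore gene Nuf2, 0.47 for Cenpe and 0.39 for the proliferation marker Mki67. Plk1 and Aurkb, both mitotic kinases, had -0.66 and -0.42 and were lower in all ventral arrays. For Plk1, dorsal array 1 was at 4.75 beside 3.43 and 3.22 in the other dorsal arrays. Whether the mitotic and the replication genes differ from each other was not tested.

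**Figure D4:**
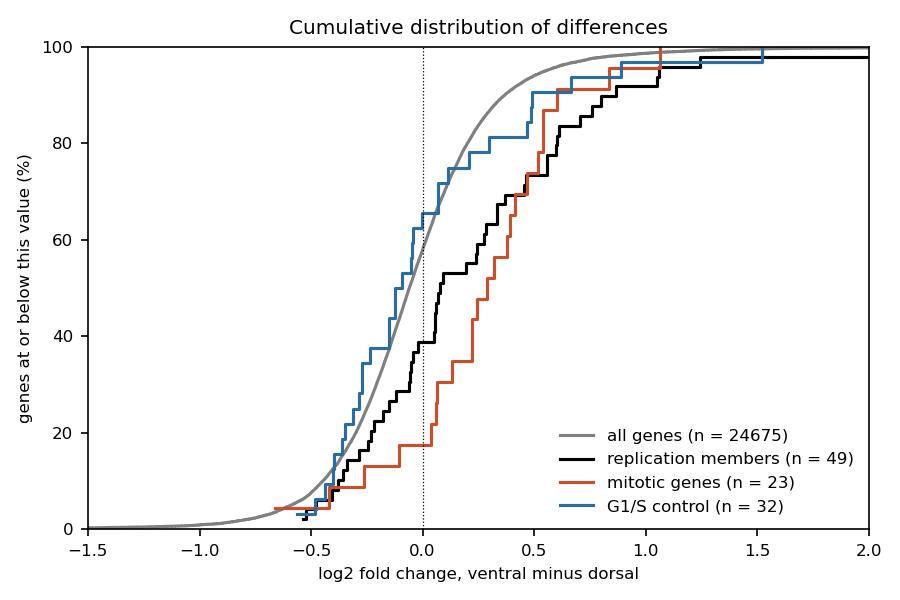
Cumulative share of genes (vertical axis, percent) by log2 fold change, ventral minus dorsal (horizontal axis, shown from -1.5 to 2). The curves of the 49 members (median 0.08) and 23 mitotic genes (median 0.29) run to the right of all genes (median -0.06), and that of 32 G1/S control genes (median -0.11) does not.

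Markers of cells that either region could hold are given beside these results. Of 14 erythroid markers 7 were positive, with a median of 0.01, and 4 exceeded 4.66. Their mean level ran from 5.02 to 5.88 in the dorsal arrays and was 4.66, 5.37 and 6.10 in ventral arrays 1, 2 and 3. The globin gene Hba-x read 7.08 on ventral array 1 and 12.11 on ventral array 3, and Hbb-bt read 6.11 and 10.98. Ventral array 1 was thus the lowest for both globins. Of the 10 members with an unadjusted limma p under 0.05 in the ventral direction, Orc6, Mcm4, Mcm2 and Rrm2 were highest in ventral array 1. Rfc1, Rpa3 and Prim2 were highest in ventral array 2, and Mcm3, Pcna and Rrm1 in ventral array 3, where Hba-x was also highest. Hbb-bs, another globin gene, had a difference of 1.299 in the ventral direction in 3 of 3 pairs, with a limma adjusted p of 0.256. Neural progenitor markers had 7 of 10 positive and a median of 0.07, with Fabp7 at 1.72 and Nes at 0.84. Sox2 had 1.65, from ventral array 1 alone, at 7.61 beside 2.20 and 2.72 in the other ventral arrays. The mean level over these 10 markers ran from 3.45 to 3.64 in the dorsal and from 3.59 to 4.48 in the ventral arrays, and 0 of 10 exceeded 4.66. Sclerotome markers had 8 of 10 negative and a median of -0.27, with Twist1 at -1.40. Their mean level ran from 4.08 to 4.19 in the dorsal and from 3.66 to 3.86 in the ventral arrays, and 2 of 10 exceeded 4.66. The medians were -0.10 for notochord, -0.05 for endothelium, 0.11 for macrophages, 0.04 for neurons, -0.04 for coelomic and gonadal epithelium and -0.07 for gut endoderm. The part of any of these cells in the values of the replication genes was not tested.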

How the data were processed

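The deposited table holds log2 values, which the authors made with Affymetrix Expression Console and RMA, per the submitters' processing notes. The log base was read from the values, which ran from 0.97 to 12.9. For the array's probe sets, the genome build was not given in the sources used here. Of 25429 probe sets 24675 had 1 gene symbol and were used, 1 per gene.

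Differences were fitted with limma 3.58.1 (R 4.3.3, lmFit and eBayes) over all genes without a filter. The replicate number was a block, because both regions came from the same embryos, per the labels. The labels do not say that equal numbers mean the same embryo. Tests were two-sided with Benjamini-Hochberg adjustment. An exact permutation test of 3 against 3 arrays cannot go below 0.1. The procedure was tested on simulated data.

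The members and gene lists were chosen with earlier results of these data known, so no list was tested. Values in every array are given for the 12 members with the smallest p and those with a mean of 7 or more or an SD over 1. In each other list up to 2 genes per direction were named, by smallest p among those with the same sign in 3 pairs, and Mki67, Top2a, Ccne1, Ccne2, E2f1, Dnmt1 and Cdkn1c whatever their values. A few further members were named for their shape after the values were seen. The labels call the arrays biological replicates. The number of arrays limits the precision.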

Additional observations from a re-analysis of the deposited data

How the results depend on the processing

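In limma no member passed an adjusted p of 0.05 under any of the 16 alternatives, and 13 members without overlap in the ventral direction became 12 to 14 in fits with all arrays. Without the replicate block, 1 gene of all was called, and 9 members had an unadjusted p under 0.05 in the ventral and 0 in the dorsal direction. Of all genes, 4.36% and 6.84% passed it in that fit. The pathway genes in the dorsal direction were then 4 instead of 2. The deviations of arrays with equal numbers correlated at 0.04, -0.01 and 0.06 across genes, all under 0.1. Pathway genes in the dorsal direction were 1 after cyclic loess, 1 with a trended and robust variance, 0 after centring on array medians and 0 for genes at or above the median. The member in the dorsal direction (Rfc2) was lost (0) without the block, after centring, with array weights and under both filters on dim genes, after cyclic loess the 1 member was Tk1 and not Rfc2, and the 2 members without overlap in that direction were 0 under both filters, since those genes were left out. The median difference of the members was 0.12 after centring, 0.19 for genes at or above the 25th percentile and 0.24 for genes at or above the median. Leaving out single arrays (without the block) or both arrays of a number gave 0 to 5 called genes. The median difference of the members was then 0.084 to 0.148. At an unadjusted limma p under 0.05 there were 4 to 11 members in the ventral and 0 to 3 in the dorsal direction. Of all genes, 3.32% to 4.64% passed it in the ventral and 3.83% to 8.47% in the dorsal direction in these fits. Pathway genes at that p numbered 5 to 16 in the ventral and 0 to 4 in the dorsal direction. In the dorsal direction 3 to 7 members did not overlap, and groups of fewer arrays separate more easily. The share of all genes without overlap was not computed for these fits. Tyms turned from -0.22 to 0.62 without both arrays numbered 3, 0.07 without dorsal array 3 and 0.33 without ventral array 3, and over the arrays left out it ran from -0.97 to 0.62. Prim1 turned to -0.055 without ventral array 3, with a highest value of 1.08. The 12 members named for their p kept their direction under every alternative in which they were tested. They were picked by p in these same arrays, so this is no independent check. Dropping the block from all arrays, changing the variance model or filtering genes cannot alter the direction. Without Pcna, an alternative chosen after seeing the data, the median was 0.07. Fits were not run at probe level, and signals near the array medians limit what dim members can show.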
